A study of Mus musculus with 10 samples.

Results

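The mitochondrial ribosome (mitoribosome) translates the few proteins encoded by mitochondrial DNA, and nearly all of its proteins are encoded by nuclear genes whose mouse symbols begin with Mrpl (large subunit) or Mrps (small subunit). Of 84 such symbols in the count table, 6 are pseudogenes by name and 2, Mrpl53 and Mrps23, had too few counts. The remaining 76 genes, 48 of the large and 28 of the small subunit, each had 10 or more counts in at least 2 of the 10 libraries, out of 55492 symbols in all. The choice used neither genotype nor cell stage. The lowest count of any of the 76 in any library was 22, for Mrps10 in 1 naive knockout library, and all 76 were tested.

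The series measured mRNA by RNA-seq in B cells of mice, with a knockout (KO) of Pcbp1, an RNA-binding protein that also carries iron, made by floxed Pcbp1 alleles and Mb1-Cre, which is driven from a gene of the B cell lineage. Naive B cells were taken from spleen (day 0; 2 WT and 2 KO libraries). Induced germinal center B (iGCB) cells had been cultured on the feeder line 40-LB, which supplies CD40 ligand and BAFF (day 4; 3 WT and 3 KO libraries). The labels do not state sex, age or strain, whether WT mice carried Cre, or whether libraries came from separate animals, so p-values measure the spread between these libraries. By Xist and Y-linked counts, naive WT 1 and naive KO 1 were female and the other 8 libraries male.

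In mammalian mitochondria the small subunit reads the mRNA, and the large subunit joins the amino acids and is anchored to the inner membrane, where the new respiratory chain subunits are inserted. Some of its proteins have bacterial counterparts, and others were added in mitochondria. Activated and dividing lymphocytes are known to build up mitochondria, and the translation of mitochondrial mRNAs is known to be needed for germinal center B cells to proliferate.

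Libraries held 33400672 to 63576147 counts. Pcbp1 was at 152.5 and 83.9 CPM (counts scaled to library size and TMM factors) in naive WT and at 4.33 and 0.448 in naive KO. It was at 147.7, 327.2 and 326.1 CPM in iGCB WT and at 3.71, 1.96 and 2.59 in iGCB KO, so every KO library lay below every WT library. The drop was -5.59 on the log2 scale in naive cells (SE 0.82, adjusted p = 0.0561, edgeR quasi-likelihood test) and -6.60 in iGCB cells (SE 0.71, adjusted p = 0.00151). Summed B cell markers were at 26000 to 34000 CPM in naive and 11400 to 16100 in iGCB libraries, and summed germinal center markers at 101 to 236 and 968 to 1220. No B cell or germinal center marker was at 0 in any group.

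Promoter sequences were looked at for letters that transcription factors of mitochondrial genes are known to bind. Of the 76 genes, 67 matched RefSeq's promoter table, with 73 windows of 250 bases before to 50 after an annotated start. Searched on both strands, the ETS motif CCGGAAG (GABP belongs to this family) was in 32.9% of these windows, in 15.0% of those of all genes past the same count rule and in 8.9% of all windows. The YY1 motif AAGATGGC was in 16.4%, 3.9% and 2.7%. The NRF1 core GCATGCG was in 11.0%, 5.5% and 3.6%, and the E-box CACGTG, bound by MYC, in 9.6%, 9.2% and 7.2%. Some genes have several windows. Counted per gene, the E-box was in 7.5% of members and 10.8% of genes past the count rule, so its order turned. The per-gene shares were 35.8% and 17.5% for ETS, 17.9% and 4.7% for YY1 and 11.9% and 6.4% for NRF1. None of the 4 motifs contains another. ETS letters were in 38.5% of small and 29.8% of large subunit windows, and NRF1 letters in 3.8% and 14.9%.

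Shown here are the last 100 bases before the start (GRCm38.p6, RefSeq, 5′ to 3′ on the gene's strand) of Mrps36, Mrpl20, Mrpl52 and Mrpl22, which rose in iGCB cells, followed by Mrps18a, whose product sits in the large subunit despite its name, and Mrps27, which was not called; the 6 were chosen after their values were seen, to show 3 of the 4 motifs beside a stretch with none. Capitals mark the motifs: the E-box in Mrpl20, ETS in Mrpl52, Mrps18a and Mrps27, and ETS then the NRF1 core, matched on both strands, in Mrpl22. None was found in these bases of Mrps36, the gene with the largest rise.
Mrps36 (chr13:100744660-100744759, minus strand): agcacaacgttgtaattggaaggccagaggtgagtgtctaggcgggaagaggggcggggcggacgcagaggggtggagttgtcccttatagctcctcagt
Mrpl20 (chr4:155802778-155802877, plus strand): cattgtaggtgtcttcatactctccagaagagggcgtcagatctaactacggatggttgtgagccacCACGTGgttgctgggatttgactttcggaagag
Mrpl52 (chr14:54426809-54426908, plus strand): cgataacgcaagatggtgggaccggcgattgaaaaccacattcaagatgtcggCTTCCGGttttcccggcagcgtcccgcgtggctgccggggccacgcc
Mrpl22 (chr11:58171564-58171663, plus strand): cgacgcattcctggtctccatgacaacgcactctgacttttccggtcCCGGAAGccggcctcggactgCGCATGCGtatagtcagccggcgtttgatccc
Mrps18a (chr17:46110904-46111003, plus strand): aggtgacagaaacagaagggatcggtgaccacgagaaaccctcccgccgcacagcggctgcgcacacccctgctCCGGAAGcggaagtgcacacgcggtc
Mrps27 (chr13:99344686-99344785, plus strand): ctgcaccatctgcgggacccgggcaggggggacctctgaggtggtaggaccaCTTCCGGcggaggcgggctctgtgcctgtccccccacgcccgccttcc

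Levels of different genes were compared per kilobase of summed exon length. In naive WT cells the 76 genes ranged from 0.489 to 34.6 CPM per kb, with a median of 5.53. In iGCB WT cells they ranged from 0.789 to 65.1, with a median of 11.8. Mrpl54, a large subunit protein found only in mitochondria, had the highest naive WT level at 34.6 ± 6.93 CPM per kb (SD, n = 2), followed by Mrps21 at 20.1 ± 8.27, Mrpl12 at 19.1 ± 10.4 and Mrpl34 at 18.2 ± 11.0, and the ranges of mean ± SD of neighbours overlapped. Mrpl12 belongs to the stalk of the large subunit that calls in translation factors.

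In iGCB WT cells Mrps21 led at 65.1 ± 27.6 CPM per kb (n = 3), then Mrpl54 at 56.7 ± 5.87, Mrps7 at 49.0 ± 4.11 and Mrps15 at 48.2 ± 7.44, with overlapping spreads from each to the next. The products of Mrps7, Mrps15 and Mrps21 have bacterial counterparts in the small subunit. The lowest gene in every group was Mrps10, at 0.489 ± 0.207 CPM per kb in naive WT and 0.789 ± 0.319 in iGCB WT. Mrps34 at 0.694 ± 0.0830, Mrps36 at 1.34 ± 0.543 and Mrpl33 at 1.90 ± 0.315 were the next lowest in naive WT. In iGCB WT those places went to Mrpl33 at 1.98 ± 0.183, Mrps25 at 2.96 ± 0.875 and Mrpl48 at 2.97 ± 0.634, while Mrps36 had moved from place 74 to place 20. Of the exon bases of Mrps25, 69.8% overlap Nr2c2 on the opposite strand. Since the strand setting of the counting is not given, the level of Mrps25 and its change between stages are uncertain. The exon length covers every annotated transcript, so a gene with long annotated exons that are little used is placed too low.

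**Figure D1:**
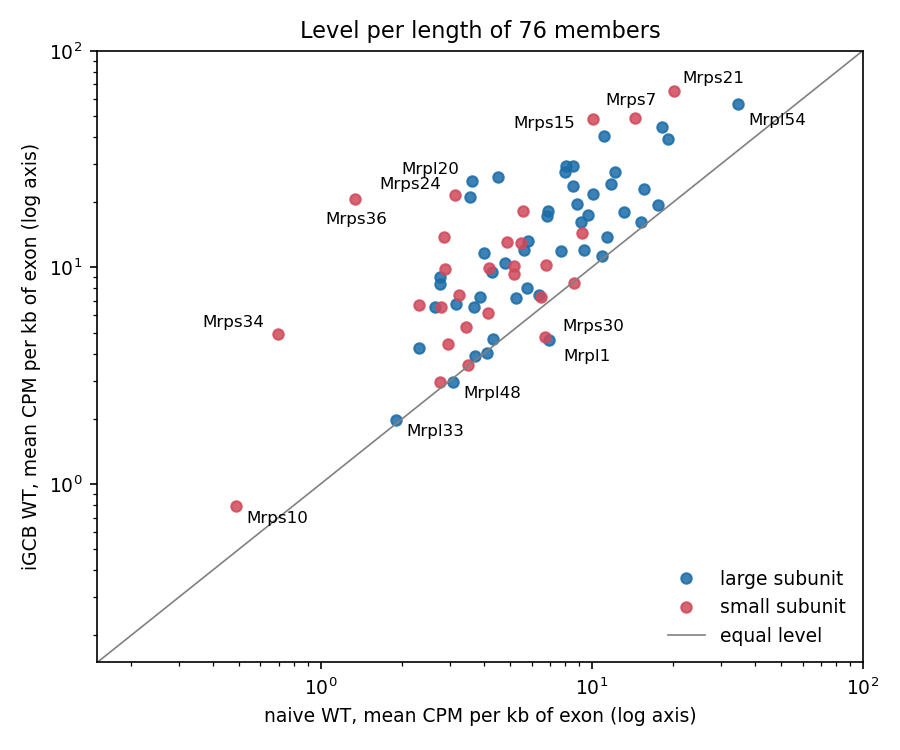
Mean level per length of the 76 genes in iGCB WT (vertical axis, CPM per kb of exon, log scale, n = 3) against naive WT (horizontal axis, same unit and scale, n = 2), with the large subunit in blue and the small in red. Most points lie above the line of equal level, with Mrps36 and Mrps34 farthest from it and Mrpl1 and Mrps30 below it.

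The comparison of iGCB with naive cells shows how these genes stood after activation and culture. In WT cells 51 of 76 rose (67.1%, where 24.7% of the 21010 genes tested were higher), 2 fell (31.7% of all genes were lower) and 23 did not pass the threshold of an adjusted p of 0.05. By subunit, 32 of 48 large and 19 of 28 small subunit genes rose. The median log2 fold change was 1.03 for the large subunit (quartiles 0.43 and 1.35) and 1.22 for the small (0.59 and 1.71), beside -0.25 over all genes tested. In bulk RNA such a change cannot be told apart as more RNA per cell or more cells of a type.

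KO cells gave nearly the same picture: 52 of 76 rose (background 24.8%) and 0 fell (background 31.4%). DESeq2 called 2 lower in KO cells, and 53 had an unadjusted p under 0.05 in edgeR's test, in either direction. Of the 51 that rose in WT all were among the 52 in KO (100% and 98.1% of the lists), and Mrpl32 was called only in KO, with a log2 fold change of 0.62 (adjusted p = 0.0218) against 0.45 in WT (adjusted p = 0.0748). The KO medians were 1.03 and 1.29 for the large and small subunit, beside -0.26 over all genes. The difference between genotypes is tested further on.

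**Figure D2:**
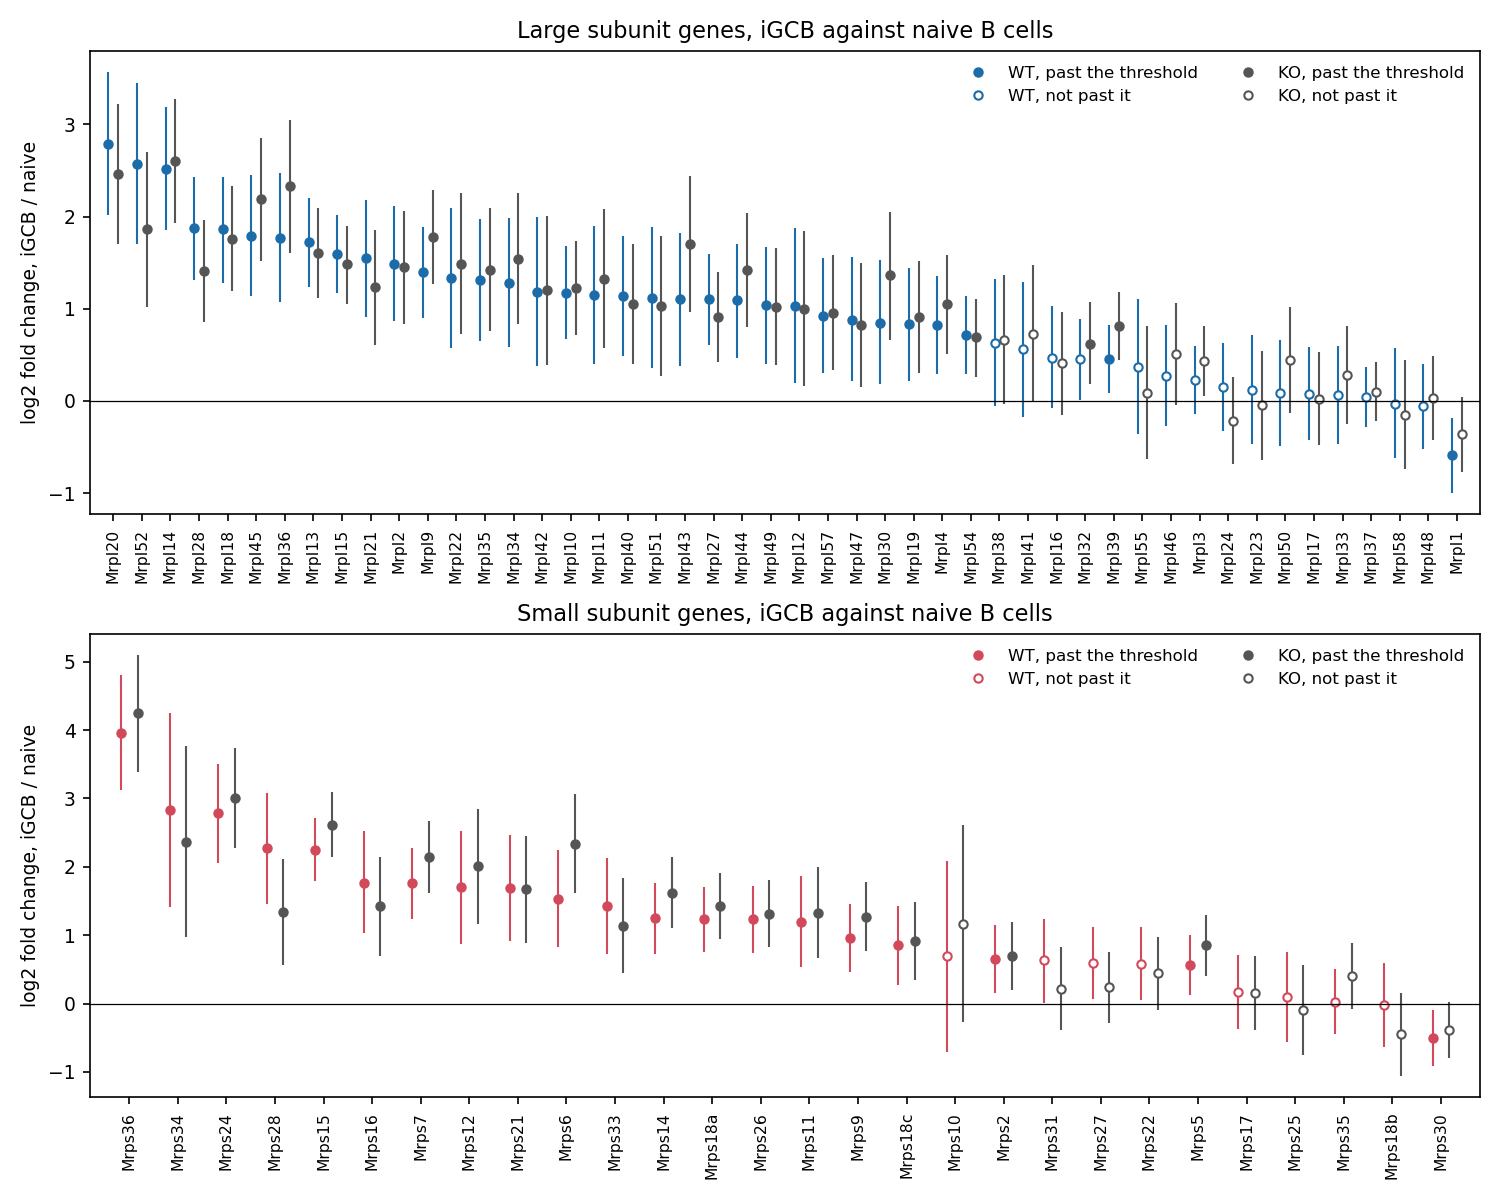
Log2 fold change of iGCB against naive cells (vertical axis) for each large subunit gene (top) and small subunit gene (bottom), in WT (coloured) and KO (grey), with 95% intervals; filled points passed the threshold. Values fall from Mrpl20 and Mrps36 at the left to Mrpl1 and Mrps30 at the right.

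Among large subunit genes the largest rise in WT was that of Mrpl20, whose bacterial counterpart binds the ribosomal RNA early in assembly. It was at 7.63 and 4.41 CPM in naive WT and at 33.7, 33.2 and 58.7 in iGCB WT. In KO it was at 7.88 and 5.42 CPM in naive and 35.4, 42.4 and 32.3 in iGCB cells. Every iGCB library lay above every naive one, with log2 fold changes of 2.79 in WT (SE 0.35, adjusted p = 8.72e-05) and 2.46 in KO (SE 0.35, adjusted p = 0.000188), both from edgeR's quasi-likelihood test, as are all adjusted p-values here unless another tool is named.

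Mrpl52, a protein of the large subunit without a bacterial counterpart, was at 4.91 and 2.95 CPM in naive WT and at 17.7, 21.1 and 31.6 in iGCB WT (2.57, SE 0.40, adjusted p = 0.000335). Mrpl14, which lies where the subunits meet, was at 5.66 and 2.92 CPM and at 22.8, 27.6 and 24.1 (2.52, SE 0.30, adjusted p = 6.67e-05). Mrpl28 (1.87), Mrpl18 (1.86) and Mrpl45 (1.79) followed. Mrpl45 lies at the exit of the protein tunnel and holds the ribosome to the inner membrane. In KO cells Mrpl14 (2.60), Mrpl20, Mrpl36 (2.33), Mrpl45 (2.19), Mrpl52 (1.86) and Mrpl9 (1.78) led.

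Mrps36 had the largest rise of all members. It is named as a small subunit protein but is absent from mitoribosome structures, and is known in other species as an adaptor that holds the alpha-ketoglutarate dehydrogenase complex together. It was at 1.22 and 2.19 CPM in naive WT and at 20.3, 21.1 and 37.8 in iGCB WT, with 1.30 and 1.19 in naive KO and 21.7, 25.8 and 23.7 in iGCB KO. The stages were far apart in both genotypes, with log2 fold changes of 3.96 (SE 0.38, adjusted p = 1.55e-05) and 4.25 (SE 0.39, adjusted p = 1.23e-05). Its gene lies at chr13:100735955-100744659 (mm10, minus strand). By 200 or more aligned bases at 95% or more identity it has 4 pseudogene copies, which leaves out Mrps36-ps3. Of the 4, Mrps36-ps2 had the most counts and held 2.74% of the total of Mrps36 over all 10 libraries. The copy's share was larger in naive cells. It had 4 and 44 counts in naive WT beside 72 and 87 for Mrps36, and 40 and 16 in naive KO beside 80 and 53. In iGCB WT it had 2, 9 and 12 counts beside 696, 758 and 1534. The part of this copy in the rise was not tested.

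Mrps24, a small subunit protein with a bacterial counterpart near the mRNA entry, was at 4.78 and 4.39 CPM in naive WT and at 27.7, 29.0 and 38.3 in iGCB WT (2.79, SE 0.33, adjusted p = 5.74e-05). Mrps15, which binds the small subunit's RNA, was at 20.2 and 14.0 CPM and at 69.0, 81.5 and 94.2 (2.25, SE 0.21, adjusted p = 1.27e-05). Mrps28, whose bacterial counterpart helps place the mRNA, was at 2.14 and 2.32 CPM and at 8.82, 8.58 and 15.0 (2.27, SE 0.37, adjusted p = 0.000462). In each of the 3 genes all iGCB libraries lay above all naive ones. Mrps16 rose by 1.77. In KO cells Mrps24 (3.00), Mrps15 (2.61), Mrps34 (2.37), Mrps6 (2.34) and Mrps7 (2.14) followed Mrps36.

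Mrps34 was at 1.55 and 1.31 CPM in naive WT and at 5.99, 5.10 and 19.5 in iGCB WT (2.83, SE 0.64, adjusted p = 0.00369). One iGCB library, WT 3, was far above the others, and without it the value was 1.95. Of its exon bases 37.0% overlap other genes on the same strand and 63.4% on the opposite strand (Mapk8ip3 and Nme3). Since the strand setting of the counting is not given in the sources used here, its level is uncertain.

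Only 2 members fell, both in WT. Mrpl1, of the arm of the large subunit where used tRNAs leave, was at 27.5 and 32.1 CPM in naive WT and at 21.8, 17.7 and 19.7 in iGCB WT (-0.59, SE 0.18, adjusted p = 0.0176). Mrps30, which the structures place in the large subunit, was at 36.5 and 53.6 CPM and at 29.5, 32.8 and 33.2 (-0.50, SE 0.19, adjusted p = 0.0405). In both genes the iGCB libraries lay below the naive ones. In KO they stood at -0.36 (adjusted p = 0.112) and -0.38 (adjusted p = 0.104). Mrpl1 kept its call in 7 and Mrps30 in 4 of 12 other settings; without the naive library WT 2 they stood at -0.48 and -0.20, and neither was called, with the remaining naive WT library assumed to vary like the other groups.

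In all, 24 members rose in neither genotype, 15 of the large and 9 of the small subunit. Among them, Mrpl48 stood at -0.06 and Mrpl58 at -0.03 in WT. Mrpl58 is a large subunit protein that frees stalled ribosomes. Mrps35 stood at 0.03, Mrps25 at 0.10 and Mrpl33 at 0.06, and Mrpl37 was at 45.5 and 52.1 CPM in naive WT and 49.0, 49.6 and 52.5 in iGCB WT (0.04, 95% interval -0.28 to 0.37). Mrps10 stood at 0.69 with the widest interval among them, -0.71 to 2.09.

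The 3 genes of the Mrps18 family differed. Mrps18a was at 18.8 and 21.6 CPM in naive WT and 40.6, 42.1 and 60.1 in iGCB WT, a rise of 1.24 (SE 0.22, adjusted p = 0.000715). Mrps18c, in the place of the bacterial protein in the small subunit, was at 5.69 and 5.45 and then 9.93, 8.66 and 11.4 CPM, a rise of 0.85 (SE 0.26, adjusted p = 0.0172). Mrps18b, which lies elsewhere in the small subunit, was at 18.8 and 17.2 and then 14.6, 13.3 and 25.3 CPM, with overlapping stages (-0.02, SE 0.28, adjusted p = 0.956). Whether the 3 genes differ from each other was not tested. The last-named overlaps Gm16279 on the opposite strand over 30.5% of its exon bases, and Mrps18c overlaps Gm43511 on the same strand over 23.2%.

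Grouped by origin of the protein, 21 of 30 large subunit genes with a bacterial counterpart rose in WT and 1 fell (median 1.12), as did 11 of 19 found only in mitochondria, with 1 lower (median 0.71). In the small subunit 14 of 16 with a bacterial counterpart rose (median 1.39) and 3 of 8 of the others (median 0.61). The counts in KO were 22 of 30, 11 of 19, 14 of 16 and 3 of 8. Over all genes tested, 24.7% were higher and 31.7% lower in WT, and 24.8% were higher in KO. The group with 3 of 8 lay nearest to these shares. The grouping follows the structures and leaves out Mrps36, Mrps18a and Mrps18b. It was added after the values were seen and is a description. Of the genes with roles of their own, the stalk proteins Mrpl10 (1.17) and Mrpl12 (1.03), the decoding center protein Mrps12 (1.70) and Mrpl44 (1.09), a relative of RNA-cutting enzymes, rose in WT.

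The members that rose had shorter exons. Summed exon length ran from 607 to 8631 bases, and its Spearman correlation with the log2 fold change over the 76 genes was -0.51 in WT and -0.46 in KO, against 0.11 and 0.12 over 20434 genes tested that had a length. Genes are not independent replicates, and no test was made. In WT 7 of 8 members under 1000 bases rose (median log2 fold change 1.31), 19 of 21 from 1000 to under 2000 bases (1.49), 16 of 25 from 2000 to under 4000 bases (0.85) and 9 of 22 of 4000 bases or more (0.34), where both falling genes also lay. In KO the counts were 7, 19, 16 and 10. Of all genes with a length, 15.7%, 25.6%, 29.5% and 25.7% were higher in WT in these bins, with medians of -1.55, -0.23, -0.02 and -0.14.

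The small subunit had the stronger rank correlation, with a Spearman value of -0.72 over 28 genes in WT, against -0.41 over 48 large subunit genes. In KO the values were -0.60 and -0.39. The 9 small subunit genes under 2000 bases all rose in WT, and 3 of 8 of 4000 bases or more did. Libraries of 1 group also differed in these genes. The median log2 difference of naive WT 1 from naive WT 2 was 0.77, 0.56, 0.54 and 0.31 in the 4 bins of members, and that of naive KO 1 from naive KO 2 was 0.28, 0.54, 0.44 and 0.20, lower in the shortest bin than in the next. Over all genes the same differences were -0.60, -0.08, 0.04 and 0.00 for the WT libraries, and -0.48, -0.02, 0.07 and 0.00 for the KO libraries. The part that length had in the rise was not tested.

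**Figure D3:**
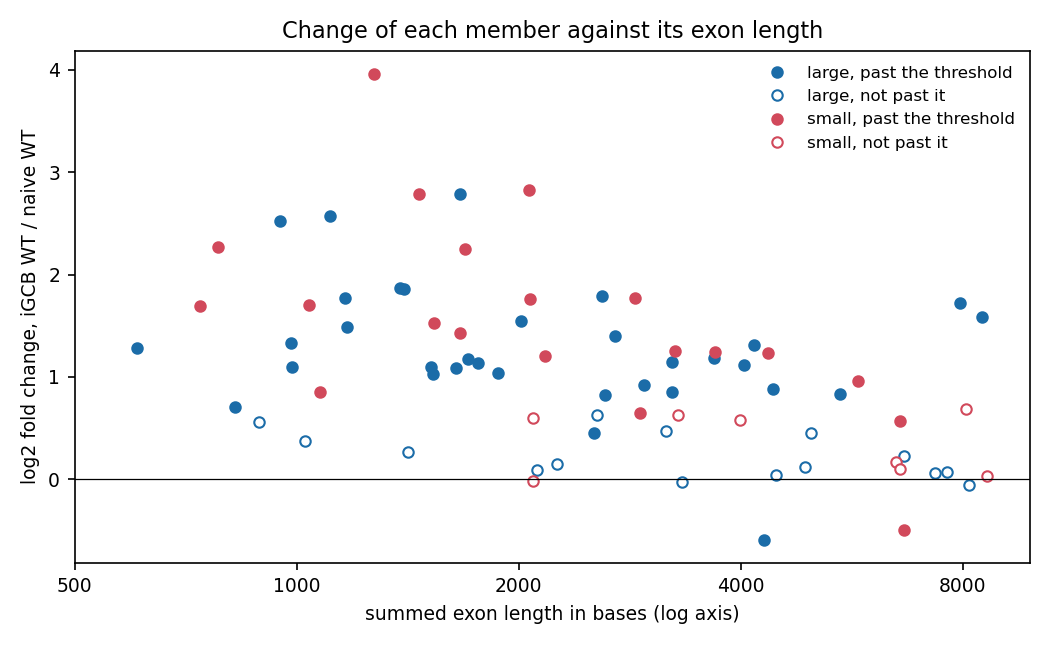
Log2 fold change of iGCB WT against naive WT (vertical axis) of each of the 76 genes against its summed exon length in bases (horizontal axis, log scale), with filled points past the threshold. Most filled points lie at shorter lengths, and the open points become more frequent to the right, where Mrpl1 and Mrps30 lie below 0.

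The motif letters were also counted by whether the gene rose. Of 67 members with a promoter, 44 rose in WT and 23 did not. ETS letters were found in 36.4% of the risers and 34.8% of the others, YY1 in 20.5% and 13.0%, NRF1 in 9.1% and 17.4% and the E-box in 9.1% and 4.3%. At least 1 of the 4 motifs was in 63.6% of the risers and 43.5% of the others, and no test was made. Within 1000 bases upstream of the start, 18 of the 76 genes (23.7%) had the start of a protein-coding gene on the opposite strand. The share was 9.6% of 14056 protein-coding genes past the count rule. Opposite-strand genes that start downstream of a gene's own start, such as Mrps11 beside Mrpl46, were not counted.

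The counts of other genes of mitochondrial translation are read against the 24.7% of all genes tested that were higher and the 31.7% that were lower in iGCB WT. Of 5 further mitoribosome proteins with other names that were tested, 4 rose in both genotypes. Chchd1 rose by 2.20 in WT and 2.34 in KO, Gadd45gip1 by 1.83 and 2.10, Dap3, which binds GTP in the small subunit, by 1.07 and 1.47, and Aurkaip1 by 0.88 and 0.91. Ptcd3 stood at -0.11 in WT (adjusted p = 0.558). Among 26 tested genes for assembly of the mitoribosome and modification of its RNA, 6 rose and 4 fell in WT, a share higher that is near this background. The pseudouridine enzyme Rpusd4 rose by 2.16 and the GTPase Mtg1 by 1.21, while Rmnd1 (-1.11) and Mterf3 (-1.05) fell.

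Of 18 translation factors 4 rose and 0 fell in WT (7 had an unadjusted p under 0.05), and the share higher was again near the 24.7% of all genes, as it was for the synthetases and below it for the RNA processing genes named next. Tsfm (2.80) and Tufm (1.29), the latter of which delivers tRNAs to the ribosome, rose, as did Hemk1 (2.70), which modifies release factors. Of 20 mitochondrial tRNA synthetases and related enzymes 5 rose, led by Lars2 (4.10), and 2 fell, Ears2 (-1.58) and Wars2 (-1.22). Of 21 genes for mitochondrial transcription and RNA processing 4 rose, led by Grsf1 (1.31), and 2 fell. The small subunit's own RNA, mt-Rnr1, rose by 2.84 (SE 0.28, adjusted p = 1.87e-05), and that of the large subunit, mt-Rnr2, stood at 0.22 (adjusted p = 0.557). Of 13 mRNAs of the mitochondrial genome 7 rose, mt-Atp8 (4.34), mt-Co2 (3.57) and mt-Atp6 (2.46) the most. Their mean naive WT levels were only 0.114, 1.74 and 2.1 CPM, and that of mt-Co3, which rose by 1.96, was 3.84. The count of 7 thus rests in part on genes at low levels. Among those at high levels, mt-Nd1 (2040 CPM in naive WT) rose by 0.87, mt-Nd6 by 1.14 and mt-Cytb by 0.71. There mt-Co1 (19100 CPM, -0.14), mt-Nd2, mt-Nd4 and mt-Nd5 were not called. The summed mRNAs overlapped between stages in WT, at 28320 to 31960 CPM in naive and 25480 to 37710 in iGCB libraries. In KO they did not, at 25310 to 27530 and 38720 to 45260 CPM. KO libraries thus lay below the WT ones in naive cells and above them in iGCB cells, and no test was made on these sums.

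Of 10 regulators known to drive mitochondrial genes, 6 fell in iGCB WT, where 31.7% of all genes were lower, among them the coactivators Ppargc1b (-2.58), Ppargc1a (-1.86) and Pprc1 (-1.08), as well as Nrf1 (-0.68) and Myc (-0.52). Yy1 rose by 0.68 (adjusted p = 0.0343), and Gabpa stood at -0.12 (adjusted p = 0.672). In KO, 4 fell and 1 rose. Cytosolic ribosomal protein genes, set beside the mitochondrial ones, rose in 63 of 82 cases in WT and fell in 2 (median 1.70), and rose in 67 of 82 in KO (median 2.09), beside 24.7% and 24.8% of all genes higher.

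Summed over the large subunit, naive levels were 1047 and 765.9 CPM (WT) and 994.2 and 768.8 CPM (KO), and iGCB levels were 1479, 1600 and 1965 CPM (WT) and 1614, 1916 and 1631 CPM (KO). For the small subunit the naive sums were 473 and 396.5 CPM (WT) and 442.1 and 391.9 CPM (KO), and the iGCB sums 768.9, 804.2 and 1052 CPM (WT) and 831.3, 994.3 and 847 CPM (KO). Both sums were higher in every iGCB library than in every naive one, and WT and KO overlapped at each stage. Naive library 1 lay above library 2 in both genotypes, and iGCB WT 3 above the other iGCB libraries.

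The ratio of the large to the small subunit sum was 2.21 and 1.93 (WT) and 2.25 and 1.96 (KO) before culture, and 1.92, 1.99 and 1.87 (WT) and 1.94, 1.93 and 1.93 (KO) on day 4. The stages overlapped. With Mrps30 and Mrps18a counted in the large subunit and Mrps36 left out, as in the structures, the ratio was 2.48 to 2.78 in naive and 2.23 to 2.36 in iGCB libraries, which did not overlap. Per kilobase of exon and as a mean over genes, the ratio was 1.40 to 1.69 in naive and 1.09 to 1.27 in iGCB libraries, also without overlap. No test was made on these sums, which are scores over the members.

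**Figure D4:**
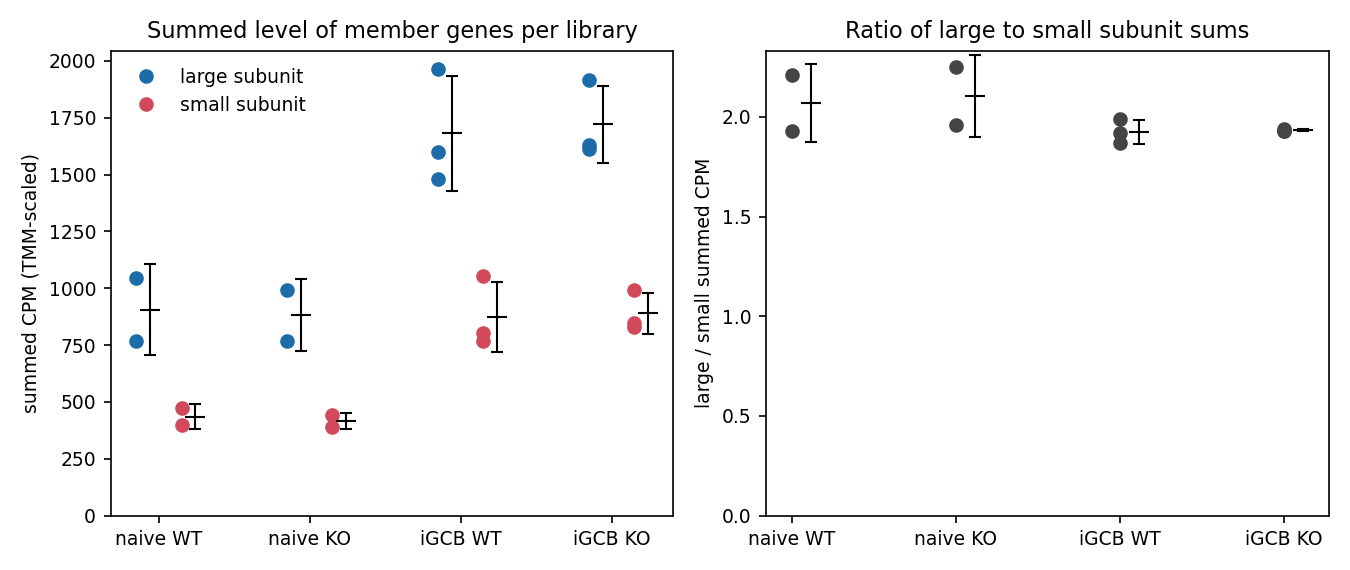
Summed level of the large and small subunit genes (left, CPM) and their ratio (right, by gene symbol) in each of the 10 libraries by group, with points for libraries and bars for mean and SD (n = 2 in naive, n = 3 in iGCB groups). Sums of iGCB libraries lie above those of naive libraries in both genotypes, and the ratios overlap.

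Several other measures moved with stage. Summed markers of cycling cells were at 447 to 739 CPM in naive, 2900 to 2940 in iGCB WT and 2140 to 2440 in iGCB KO libraries, with none of the 6 at 0. Stress genes such as Fos and Jun were at 1260 to 2050 CPM in naive and 53.4 to 73.7 in iGCB libraries. Fibroblast markers were at 1.39 to 4.59 and 22.8 to 48.3 CPM, with none of the 11 at 0 in iGCB groups. Myeloid markers were at 28.7 to 264 and 5.40 to 50.9 CPM, T cell markers at 8.87 to 45.6 and 0.613 to 2.12, and those of red cells and platelets at 33.1 to 224 and 3.16 to 8.74. S100a8 was at 0 in both iGCB groups. The part of these in the rise was not tested. Without naive WT 1, the female library of the WT comparison, 56 members rose in WT, with medians of 1.38 and 1.18. Without naive WT 2, 32 rose, with medians of 0.58 and 1.12. Each of these fits keeps 1 naive WT library, which is assumed to vary like the other groups, and naive KO 1 stays in both. The sex of the naive libraries and their number cannot be told apart.

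The comparison of KO with WT asks what loss of Pcbp1 did to these genes at each stage. No member was called in naive cells (0 of 76, background 0.0476%) or in iGCB cells (0 of 76, background 1.27%) by edgeR. DESeq2 also called 0 at each stage. At an unadjusted p under 0.05 edgeR had 0 in naive and 1 in iGCB cells, and DESeq2 0 and 2. Over all genes 5.55% and 9.76% had such a p in edgeR's test.

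In naive cells the median log2 fold change of KO against WT was -0.08 for the large and -0.10 for the small subunit, beside -0.05 over all genes. Scaled by library size only, the medians were 0.06, 0.05 and 0.07, so their sign depends on the scaling. Pair 1 (both female) gave medians of -0.09 and -0.07, with 27 of 76 above 0, and pair 2 (both male) gave 0.01 and 0.03, with 38 above 0. In iGCB cells the medians were 0.02 and -0.02, beside 0.00 over all genes.

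Mrpl52 had the smallest p in naive cells, at 4.91 and 2.95 CPM in WT and 8.62 and 5.22 in KO. The KO libraries lay above the WT ones, but the difference of 0.81 (95% interval -0.06 to 1.69) had an adjusted p of 0.945. Mrpl39 stood at -0.34 and Mrpl36 at -0.48. Mrps10 was at 5.13 and 2.77 CPM in WT and at 2.88 and 0.493 in KO, so the groups overlapped (-1.22, 95% interval -2.75 to 0.32). Leaving out 1 naive library at a time moved its value between -3.01 and -0.46. Mrps12 stood at -0.63 and Mrps28 at 0.54.

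In iGCB cells Mrps6, a small subunit protein with a bacterial counterpart, was at 8.61, 11.7 and 10.5 CPM in WT and 19.1, 19.2 and 11.9 in KO. Every KO library lay above every WT library, KO 3 by the least, and the difference was 0.71 (95% interval 0.11 to 1.30, adjusted p = 0.383). Of its exon bases 19.9% overlap other genes on the same strand. Mrpl45 was at 77.3, 73.7 and 64.5 CPM in WT and 115, 112.1 and 85.9 in KO (0.54, 95% interval -0.01 to 1.09, adjusted p = 0.525). Here too the groups did not overlap. Mrps35 stood at 0.35, Mrpl13 at -0.31, Mrpl28 at -0.29 and Mrps18b at -0.41.

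**Figure D5:**
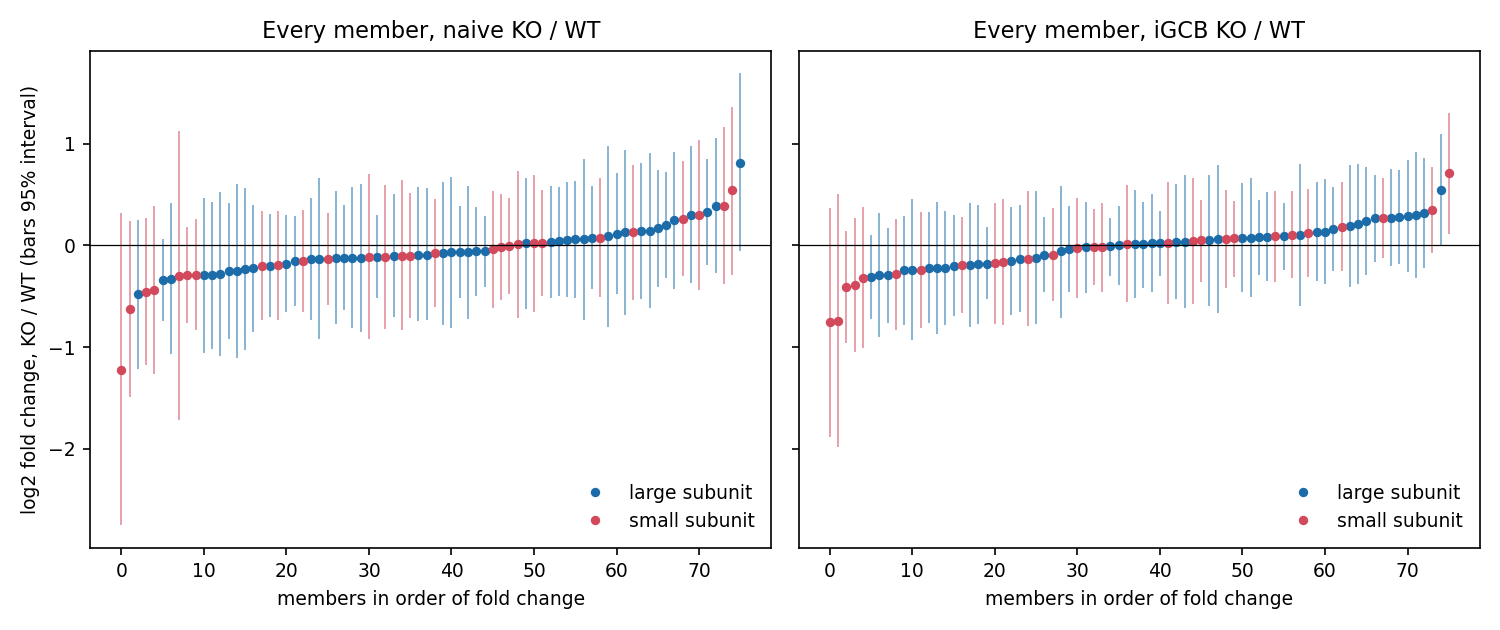
Log2 fold change of KO against WT in naive (left) and iGCB cells (right), with 95% intervals, for all 76 genes in order of value (horizontal axis, place in that order). Intervals of all members in naive cells and of all but Mrps6 in iGCB cells include 0.

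The unadjusted 95% intervals lay within 1 log2 unit of 0, for 59 of 76 members in naive and 70 in iGCB cells, with median half-widths of 0.65 and 0.53. Half-widths ran from 0.35 to 1.53 in naive and from 0.29 to 1.24 in iGCB cells, so the precision differed between members. Several marker sums did not overlap between the genotypes. In groups of 2 or 3 libraries this can often happen by chance, and no test was made on these sums. In iGCB cells plasma cell markers were at 1940 to 2070 CPM in WT and 975 to 1070 in KO, NK cell markers at 7.35 to 13.6 and 17.9 to 24, B cell markers at 11400 to 12600 and 14100 to 16100, and cycling markers were lower in KO as given above. In naive cells NK cell markers were at 6.57 to 7.54 CPM in WT and 13.3 to 14.2 in KO, germinal center markers at 139 to 236 and 101 to 136, and fibroblast markers at 2.40 to 4.59 and 1.39 to 2.15. Ncr1, an NK cell marker, was at 0 in iGCB WT. Their part in any member's value was not tested.

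Whether the KO effect differed between stages was tested as the difference of both effects. No member was called (0 of 76, background 0.0333%), 0 had an unadjusted p under 0.05 by edgeR, and DESeq2 also gave 0 for both. The median difference was 0.04 for the large and 0.10 for the small subunit, beside 0.04 over all genes. Scaled by library size only, these became -0.10, -0.04 and -0.10. The smallest p belonged to Mrps28 (-0.93, 95% interval -1.98 to 0.13, adjusted p = 0.887) and Mrps6 (0.80, 95% interval -0.14 to 1.75, adjusted p = 0.897). Mrpl39 stood at 0.36, Mrpl52 at -0.71, Mrpl28 at -0.46 and Mrps15 at 0.36. The interval lay within 1 log2 unit of 0 for 33 of 76 members.

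None of the other mitochondrial translation lists had a member called for KO against WT at either stage. The synthetase gene Cars2 in iGCB cells came nearest, at mean levels of 27.3 CPM in WT and 16.3 in KO (-0.74, SE 0.17, adjusted p = 0.0757). Over all genes 5.55% in naive and 9.76% in iGCB cells had an unadjusted p under 0.05. By unadjusted p under 0.05 in edgeR's test, 1 of 26 assembly genes and 1 of 18 translation factors passed in naive cells, and in iGCB cells 1 of 18 translation factors, 2 of 20 synthetases, 1 of 21 transcription and RNA processing genes and 3 of 13 mitochondrial mRNAs did. Cytosolic ribosomal protein genes had a median of -0.11 in naive and 0.26 in iGCB cells, with 0 of 82 called and 8 of 82 (9.76%, the share over all genes) at an unadjusted p under 0.05 in iGCB cells.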

How the data were processed

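The 10 libraries were grouped by stage and genotype from the labels (2 naive WT, 2 naive KO, 3 iGCB WT, 3 iGCB KO). The deposited table holds counts of reads per gene, which the authors made with featureCounts on mm10, per the submitters' processing notes. No source used here gives an aligner, an annotation version or whether strand was used. Counts were used as deposited. Of counts from 1 to 20, 17.7% to 26.9% per library were odd numbers, so most low counts are even; p-values take counts at face value. Genes were filtered with filterByExpr (minimum count 10), which left 21010, scaled with TMM and tested in 1 edgeR 4.0.16 quasi-likelihood fit of all 10 libraries (limma 3.58.1, R 4.3.3; 6 residual degrees of freedom) in 5 comparisons, each with Benjamini-Hochberg adjustment over all genes and a threshold of 0.05. The procedure was tested on simulated data.

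Exon lengths, overlaps and coordinates came from GENCODE M21 (mm10) and promoters from RefSeq (GRCm38.p6), with Python 3.11.15. Members and lists were chosen with earlier results of these data known. Named are, per subunit, the 6 largest called rises and 3 lowest values for stage, the 3 smallest p for knockout, the 4 highest and lowest per length, genes with roles of their own and up to 3 called genes per pathway list; others were chosen after their values were seen. Alternatives were DESeq2 1.42.0, its size factors, library size only, no filter, a replicate block, a sex term, the compared groups alone, leaving out each library and subunits by structure. Sex was read from Xist and Y-linked counts. Same-numbered naive libraries matched in sex, but the iGCB numbers showed no common pairing, so no block was used in the main test.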

Additional observations from a re-analysis of the deposited data

How the results depend on the processing

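Of the 53 members called between stages in WT and 52 in KO, 32 and 36 were called in all 12 alternatives, and all kept their direction. Members higher in WT numbered 51 with DESeq2, 50 with its size factors, 55 by library size only, 50 without the filter, 61 with a sex term and 46 with the groups alone, and 32 to 56 leaving out 1 library (32 without naive WT 2, 39 without iGCB WT 3). Those lower in WT numbered 1 by library size only, 0 without the filter and 0 with the groups alone, and 0 to 2 leaving out 1 library. In KO 50 to 59 were higher across these settings and 36 to 56 leaving out 1 library; 2 were lower with DESeq2, 1 with its size factors, 1 with a sex term and 1 with the groups alone. The cause was not tested.

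Same-numbered WT and KO libraries were compared in their departures from the group mean over 8944 genes, not in their levels. These departures correlated at 0.6 in naive cells, where the libraries also matched in sex. With 2 libraries in each naive group the departures mirror each other, so both naive numbers give the same value. In iGCB cells the values were 0.5, -0.15 and 0.01, so the numbers were not taken as pairs across the series. With the replicate block 39 members were higher and 0 lower in WT, and 48 higher in KO, and the block called 0 for KO against WT.

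The WT median of the large subunit was 1.39 with a sex term and 0.58 to 1.38 leaving out 1 library. All iGCB libraries were male, so the sex term rested on the naive libraries, where sex and library number cannot be told apart. It thus comes close to leaving out naive WT 1, which gave a median of 1.38. By structure the subunit ratio was 2.64, 2.63, 2.29 and 2.29 in naive WT, naive KO, iGCB WT and iGCB KO. For KO against WT and the difference, 0 members were called in every alternative run.

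Uncalled values near 0 changed sign between stages in WT. Mrps35 was -0.05 with DESeq2 and with its size factors. Mrpl58 was 0.01 by library size only, 0.04 without the filter, 0.15 with a sex term and 0.00 with the groups alone, and in KO 0.01 with a sex term. Mrps18b was 0.01, 0.05, 0.00 and 0.01 in these settings, and Mrpl48 0.01 without the filter and 0.03 with a sex term. Leaving out 1 library gave -0.22 to 0.09 for Mrpl48, -0.28 to 0.27 for Mrpl58, -0.37 to 0.15 for Mrps18b, -0.30 to 0.45 for Mrps35, -0.48 to 0.48 for Mrps25 in KO and -0.93 to 0.03 for Mrpl36 in naive KO against WT. Where a naive library is left out, the other is assumed to vary like the other groups. Groups of 2 and 3 libraries limit the precision of each of these values.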
